A study of Mus musculus with 11 samples.

Results

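The testis-specific serine kinases form a small family of protein kinases made almost entirely in the testis. The 5 kinase genes Tssk1, Tssk2, Tssk3, Tssk4 and Tssk6, together with Tsks, were taken by gene symbol from a table of 23074 genes. Tsks encodes a substrate of kinases of this family. All 6 genes were present, and all 6 passed the filter on low counts that left 15745 genes for testing. Their transcripts are known to appear after meiosis, in haploid spermatids, where the kinases act in the remodelling of the nucleus, mitochondrial sheath and tail. Male mice that lack Tssk6, Tssk3 or the Tssk1 and Tssk2 pair are known to be infertile. RFX2 is a winged-helix transcription factor of pachytene spermatocytes and round spermatids that binds X-box sequences.

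RNA-Seq of whole decapsulated testis compared 5 wild type (WT, Rfx2+/+) mice with 6 Rfx2-/- mice, all at postnatal day 21 (P21), to find transcripts that depend on RFX2. In the Rfx2-/- mice exon 7 had been excised through loxP sites by a Cre transgene under the ACTB promoter, active in every tissue and derived from an FVB/N strain, so the loss was not limited to germ cells. The study held a line with the neomycin cassette on a mixed background and a line without it on C57BL/6. The labels give both genotypes as a mixture of C57BL/6, 129/Sv and FVB/N and do not name the cassette. Littermates were used where possible, but the labels name no litters. At this age the first wave of germ cells has just produced round spermatids. Each library holds 1 mouse, and p-values measure the spread among these mice.

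Libraries held between 22232097 and 29769483 counted reads, and 3 counts, taken as the floor, correspond to 0.0852 to 0.139 CPM (read counts scaled to library size), a limit that covers counting error only. Rfx2 itself stood at 472, 380.2, 218, 368 and 191 CPM in WT mice 1 to 5 and at 282, 303 and 324 CPM (lowest, median and highest) in the 6 Rfx2-/- mice. These counts span the whole gene and do not check the loss of exon 7. The tissue carried its markers: Piwil1 and Sycp3 of spermatocytes averaged 1001.5 and 235 CPM in WT testis, Sox9 of Sertoli cells 58.1 CPM and Cyp17a1 of Leydig cells 36.3 CPM. In Rfx2-/- testis these means were 1200.7, 225, 45.4 and 38.6 CPM. Over their lists, 12 of 14 pachytene spermatocyte markers had a fitted fold change above 0, while 10 of 10 Sertoli cell markers and 6 of 7 Leydig cell markers were below 0. Of the 15745 genes, 1.94% were called lower in Rfx2-/- testis and 0.730% higher by the quasi-likelihood test of edgeR (Benjamini-Hochberg adjusted p no greater than 0.01).

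The kinases are small and their genes compact. Tssk1 (ENSMUSG00000041566) and Tssk2 (ENSMUSG00000045521) lie head to tail on the plus strand of chromosome 16 of GRCm38, from 17894223 to 17897922 and from 17898637 to 17900024, with 714 nt between them. Each consists of 1 exon without introns. Their reading frames have 365 and 358 codons, and 80.9% of the 1059 aligned coding bases were identical. The longest run that both coding sequences share is 113 nt long and is shown in capitals with 15 flanking bases, because reads that fall wholly within it cannot be assigned to either gene.

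Tssk1, chr16:17894708-17894850, plus strand: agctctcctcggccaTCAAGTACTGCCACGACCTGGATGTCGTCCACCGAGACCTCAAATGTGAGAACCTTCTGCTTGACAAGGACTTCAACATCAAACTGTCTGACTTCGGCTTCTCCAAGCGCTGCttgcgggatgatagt
Tssk2, chr16:17899090-17899232, plus strand: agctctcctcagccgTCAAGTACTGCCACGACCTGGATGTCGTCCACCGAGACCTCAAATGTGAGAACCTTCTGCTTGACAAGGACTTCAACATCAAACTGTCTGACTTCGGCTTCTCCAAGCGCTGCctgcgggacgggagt

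The run occupies the same coding bases, 371 to 483, in both genes. Of all 50-nt stretches, 125 were common to the transcripts of Tssk1 and Tssk2, which is 3.42% of those in Tssk1 and 9.34% of those in Tssk2. Reads with more than 1 mapping place had been discarded, so reads on these stretches would be missing from both genes. No 50-nt stretch of Tssk3, Tssk4, Tssk6 or Tsks occurred in the same orientation in a transcript of another gene. Reads shorter than 50 nt could share more.

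The other members are scattered. Tssk3 (ENSMUSG00000000411) lies on the minus strand of chromosome 4, from 129489014 to 129491022, with 2 exons and 268 codons. Tssk4 (ENSMUSG00000007591) lies on the plus strand of chromosome 14, from 55650184 to 55652539, with 338 codons. Tsks (ENSMUSG00000059891) has 11 merged exons on the plus strand of chromosome 7, from 44943204 to 44958035, and is the longest reading frame, with 585 codons. Tssk6 (ENSMUSG00000047654) is a single exon of 1335 nt on the plus strand of chromosome 8, from 69902184 to 69903518. Coding transcripts of Ndufa13 and Yjefn3 on the opposite strand cover 390 nt, or 29.2%, of it. Whether counting used the strand is not given in the sources used here. Reads on exons of different genes had been left out, so without strand the reads on these 390 nt would be missing from Tssk6.

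Upstream of the start sites the members shared only short runs. Among the 15 pairs of members, the longest run shared by the 250 bases before the RefSeq start sites of GRCm38.p6 was 11 nt, between Tssk1 and Tssk2, and the runs of the other pairs were 7 to 10 nt long, with 10 nt between Tssk1 and Tsks, which lies on another chromosome. The last 60 upstream bases of both genes are shown with this run in capitals.

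Tssk1, chr16:17894143-17894202, plus strand: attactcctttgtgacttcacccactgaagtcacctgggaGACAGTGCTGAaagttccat
Tssk2, chr16:17898577-17898636, plus strand: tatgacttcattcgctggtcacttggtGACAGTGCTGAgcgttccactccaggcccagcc

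Windows of 250 bases before to 50 after the start were searched on both strands for the X-box motif GTTGCC, bound by RFX factors, and for cyclic AMP response elements (CRE), bound by CREM, a regulator of spermatid genes. GTTGCC was in 12.5% of 32851 promoters and in 0 of the 6 members' windows. Both arms of an X-box, GTTGCC followed after 1 to 3 bases by GGCAAC, were in 0.161% of promoters, and the full CRE TGACGTCA was in 1.79%, each again in 0 of 6. Only exact letters were searched, so sites that depart from them were missed. The search therefore cannot show whether the members lack RFX sites. The study also mapped RFX2 binding by ChIP-Seq, which was not used here. The shorter CRE motif TGACG, which is contained in the full CRE, was in 20.8% of promoters and in 1 of 6, Tssk6. It stands in capitals in the 30 bases around it, beginning 73 bases before the start.

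Tssk6, chr8:69902098-69902127, plus strand: ccccaaggccgagTGACGcccgcagtcact

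None of the kinases differed between genotypes beyond the spread between mice. Tssk1, which with Tssk2 is needed for the cytoplasm and mitochondrial sheath of late spermatids, had 80.1, 29.6, 4.15, 9.04 and 2.83 CPM in WT mice 1 to 5. In the 6 Rfx2-/- mice its lowest, median and highest values were 4.86, 22.4 and 108.7 CPM. Rfx2-/- mouse 7 and WT mouse 1 were highest, followed by Rfx2-/- mouse 6 at 52.9 CPM, and the genotypes overlapped. The fitted log2 fold change of Rfx2-/- over WT was 0.53 (standard error 0.985, 95% interval -1.64 to 2.70, adjusted p = 0.688 in edgeR). The intervals and adjusted p-values that follow are from this fit.

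Tssk2, the partner of Tssk1, had 64.9, 12.8, 1.28, 1.79 and 0.472 CPM in WT mice 1 to 5. Its lowest, median and highest values in Rfx2-/- mice were 0.462, 6.44 and 56.1 CPM. The lowest values rest on 15 and 10 counts, above the floor, and both genotypes ran over the same range. Tssk2 was the only member with a fitted fold change below 0, at -0.17 on the log2 scale (standard error 1.34, interval -3.11 to 2.77, adjusted p = 0.929 in edgeR).

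Tssk3 encodes one of the smallest kinases of the family, which is activated by the kinase PDPK1. It had 20.5, 5.11, 0.682, 1.37 and 0.377 CPM in WT mice 1 to 5. Its lowest, median and highest values in Rfx2-/- mice were 1.47, 8.31 and 31.7 CPM. The median of the Rfx2-/- mice exceeded 4 of the 5 WT values, but the highest WT mouse was level with Rfx2-/- mouse 6, at 20.5 and 20.4 CPM. Its fitted log2 fold change, 1.10, was the highest of the members (standard error 1.07, interval -1.26 to 3.46, adjusted p = 0.438 in edgeR).

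Tssk4 encodes a kinase that phosphorylates the outer dense fibre protein ODF2. Its values were 34.2, 11.1, 0.795, 1.79 and 0.314 CPM in WT mice 1 to 5. In Rfx2-/- mice the lowest, median and highest values were 1.11, 6.65 and 32.5 CPM. The upper ends of the genotypes were alike, and the fitted log2 fold change was 0.18 (standard error 1.17, interval -2.38 to 2.75, adjusted p = 0.912 in edgeR).

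Tssk6 encodes a kinase needed for the shaping of the sperm head and for fusion with the egg. It had 4.16, 1.04, 0.824, 0.771 and 0.754 CPM in WT mice 1 to 5. In Rfx2-/- mice the lowest, median and highest values were 0.826, 1.09 and 3.80 CPM. Only WT mouse 1 and Rfx2-/- mouse 7 exceeded 1.4 CPM, and the remaining mice lay close together on 19 to 35 counts. The fitted log2 fold change was 0.0012 (standard error 0.564, interval -1.24 to 1.24, adjusted p = 0.999 in edgeR). This interval was the narrowest of the members.

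Tsks, the substrate found at the centrioles and chromatoid body of spermatids, had 69.9, 17.1, 4.63, 4.59 and 2.39 CPM in WT mice 1 to 5. In Rfx2-/- mice the lowest, median and highest values were 5.18, 18.9 and 90.5 CPM. As for Tssk1, Rfx2-/- mouse 7 was highest and WT mouse 5 lowest. The fitted log2 fold change was 0.64 (standard error 0.972, interval -1.50 to 2.78, adjusted p = 0.621 in edgeR).

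**Figure D1:**
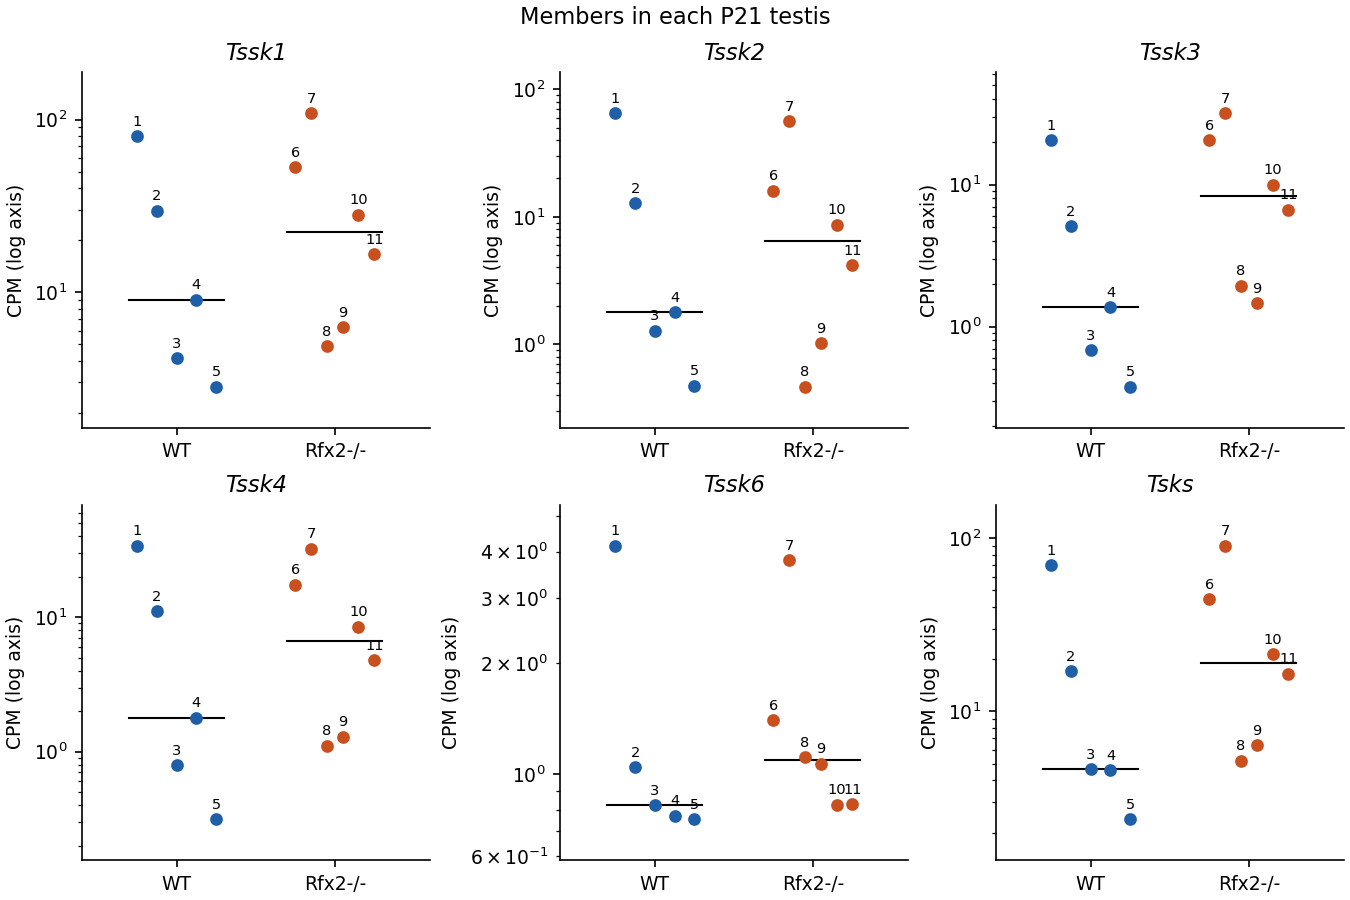
CPM of the 6 members (log axis) in each mouse at P21, with WT mice in blue and Rfx2-/- mice in orange, the replicate number above each point and a line at the median. WT mouse 1 and Rfx2-/- mouse 7 are the highest of their genotype in all 6 panels, and the genotypes overlap in each.

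In all, 0 of 6 members were called lower, against 1.94% of tested genes, and 0 of 6 were called higher, against 0.730%. The fold change was above 0 for 5 members and below 0 for 1, with a median of 0.36 on the log2 scale, while the median over all tested genes was -0.05. At an unadjusted p under 0.05, 0 of 6 members and 6576 of the 15745 genes passed, and DESeq2 and limma voom also called 0 members. Every Rfx2-/- mouse was below every WT mouse for 5.20% of tested genes and above for 6.50%, and for 0 of the 6 members in either direction. The intervals of all 6 members reach at least 1.24 log2 units to both sides of 0.

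The direction of several members rested on single mice. Without WT mouse 1, the log2 fold change of Tssk2 was 1.82, and it was also above 0, by 0.02 to 0.09, without Rfx2-/- mouse 8, 9 or 11. Without Rfx2-/- mouse 7, the fold changes of Tssk1, Tssk4, Tssk6 and Tsks fell below 0, to -0.21, -0.54, -0.52 and -0.07. Tssk4 was also below 0 without WT mouse 3, 4 or 5, at -0.12 to -0.08, and Tssk6 without WT mouse 2, 3, 4 or 5, at -0.16 to -0.11. Tssk3 was above 0 in each of the 11 fits that left out 1 mouse, at 0.53 to 2.68. None of these fits called a member.

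What the members had in common was their spread among mice of the same age and genotype. Between the lowest and highest WT mouse Tssk2 differed 138-fold, Tssk4 109-fold, Tssk3 54.5-fold, Tsks 29.2-fold, Tssk1 28.3-fold and Tssk6 5.51-fold. Among Rfx2-/- mice these ranges were 121-fold, 29.3-fold, 21.6-fold, 17.5-fold, 22.4-fold and 4.60-fold. The SD of log2 CPM of Tssk2 was 2.78 in WT and 2.48 in Rfx2-/- mice, where the median SD of tested genes was 0.284 and 0.157. For all 6 members and both genotypes the SD lay between the 93.4th and 99.8th percentile of tested genes. WT mouse 1 alone supplied 79.9% of the summed Tssk2 CPM of its group, and Rfx2-/- mouse 7 supplied 64.9%.

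The same mice were high for each member. WT mouse 1 and Rfx2-/- mouse 7 took the first 2 places among the 11 mice for all 6 members, and Rfx2-/- mouse 6 held rank 3 for all 6. WT mouse 5 was last for 5 members and held rank 10 for Tssk2. Over the 11 mice, Pearson's r of log2 CPM between members had a median of 0.969, and Spearman's rho a median of 0.927, in 15 pairs. The 10 pairs without Tssk6 had r of 0.917 to 0.994 and rho of 0.845 to 0.991, with permutation p-values of r from 1e-05, the smallest that 100000 permutations can give, to 0.00017, and adjusted values of 2.62e-05 to 0.000264 over the r and rho of 21 relations. When the 2 mice farthest from the median of the first gene were left out, r was still 0.873 to 0.997, and within the 6 Rfx2-/- mice it was 0.972 to 0.998. The 5 WT mice are too few for a value of their own.

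Tssk6 stood somewhat apart. Its 5 pairs had r of 0.716 to 0.801 and rho of 0.591 to 0.818, with permutation p-values of r up to 0.00645 and of rho up to 0.0613. Leaving out the 2 farthest mice lowered r to between 0.361 and 0.697. For the Tssk2 pair r fell from 0.773 to 0.361, so this relation rests on those mice. Outside WT mouse 1 and Rfx2-/- mouse 7, Tssk6 had only 19 to 35 counts. Coding exons on the opposite strand cover 29.2% of it. Of their genes, Ndufa13 stood at 79.6 to 108 CPM in WT and 93.5 to 97.0 CPM in Rfx2-/- mice. Whether these limits lowered the r of Tssk6 was not tested. The values of a mouse share 1 library, and genotype and mouse are not separated in these correlations.

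The spread moved with the markers of round spermatids. A score, the mean log2 CPM of 32 round spermatid markers that include no member, was 1.50 ± 2.68 (SD, n = 5) in WT and 3.01 ± 1.85 (SD, n = 6) in Rfx2-/- mice, a difference of 1.52 with p = 0.279 in a two-sided exact permutation test. Without WT mouse 1 the difference was 2.45 (exact permutation p = 0.0667), without WT mouse 5 it was 0.78 (p = 0.562) and without Rfx2-/- mouse 7 it was 0.996 (p = 0.460). The summed CPM of the 32 markers ran from 71.6 to 1999 in WT and from 287 to 2678 in Rfx2-/- mice, and 0 markers were at 0 in every mouse. Of the defining markers, Acrv1 averaged 17.3 CPM in WT and 39.5 CPM in Rfx2-/- mice, Tnp1 9.70 and 6.43 CPM, and Prm1 4.84 and 3.42 CPM. Of the 32 markers, 27 had a fitted fold change above 0 and 5 below, with a median of 0.74 on the log2 scale, and 0 were called. Members correlated with the score over the 11 mice, with r from 0.948 (Tssk2) to 0.990 (Tsks) for 5 members and 0.766 for Tssk6. The permutation p-values of these r were at most 0.00193 and the adjusted values at most 0.00259; rho was 0.818 to 0.991. Without the 2 mice farthest from the median score r was 0.678 for Tssk6 and 0.932 to 0.990 for the others. In bulk testis, fewer spermatids and less RNA per spermatid cannot be told apart.

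**Figure D2:**
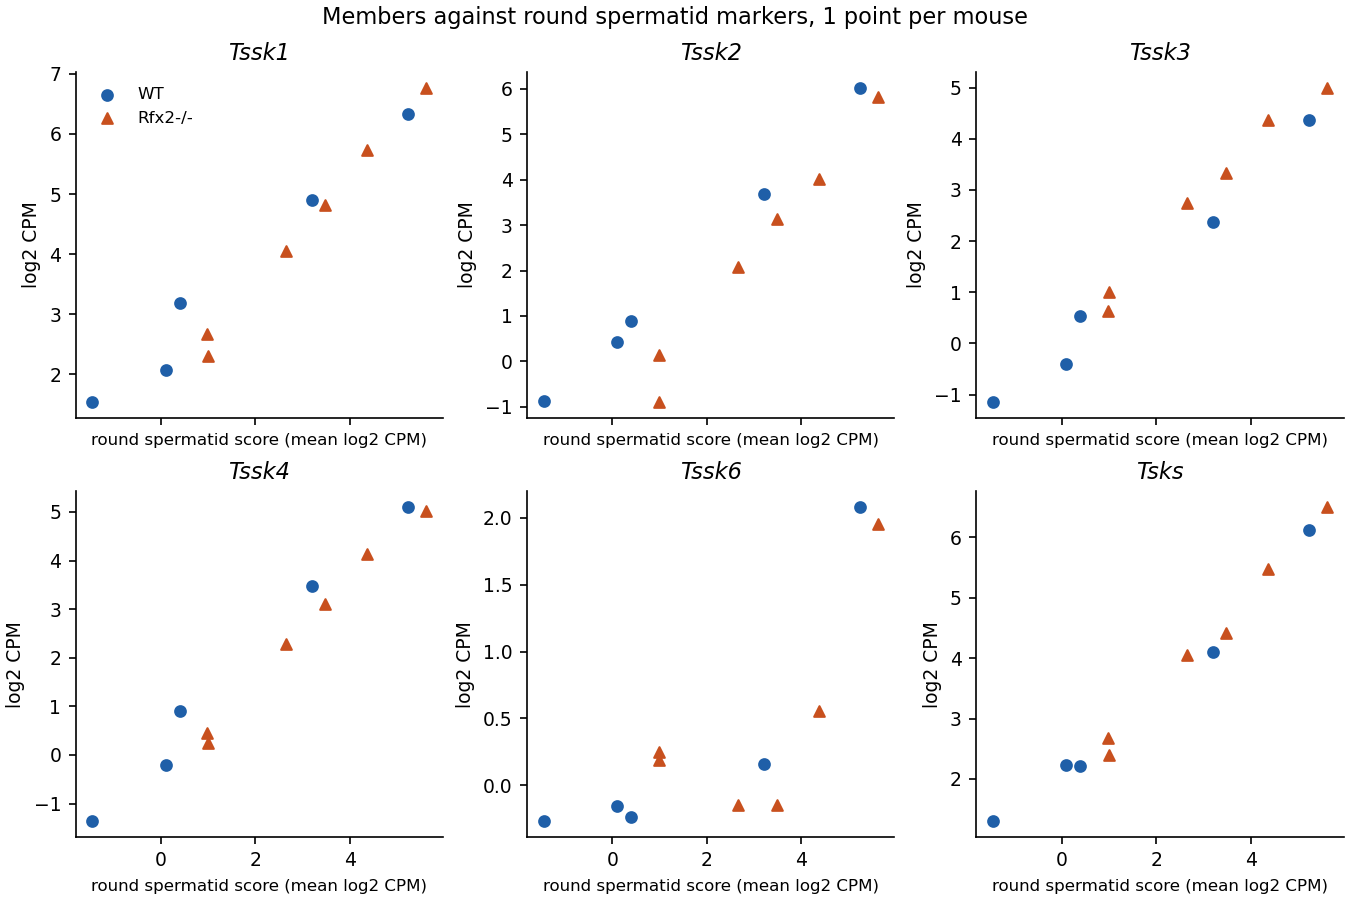
log2 CPM of each member against the round spermatid score (mean log2 CPM of 32 markers), with WT mice as blue circles and Rfx2-/- mice as orange triangles. Points of both genotypes rise together in 5 panels (r of 0.948 to 0.990), while Tssk6 stays near its lowest level except in the highest mice (r = 0.766).

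Among 7 other marker lists, the scores of pachytene spermatocytes and Sertoli cells had an unadjusted p under 0.05. The score of 14 pachytene spermatocyte markers was higher in Rfx2-/- mice by 0.64 (8.36 ± 0.616, SD, n = 5, against 9.0 ± 0.113, SD, n = 6; exact permutation p = 0.00433), with summed CPM of 5656 to 11893 in WT and 10893 to 13641 in Rfx2-/- mice. The score of 10 Sertoli cell markers was lower by 0.31 (exact permutation p = 0.0216), with summed CPM of 2648 to 4003 and 2550 to 3005. In these lists 0 markers were at 0 in every mouse. For pachytene markers WT mice 3 and 5, which are also low for the members, had the lowest scores, 7.79 and 7.60. WT mouse 4 and Rfx2-/- mice 8 and 9 were low for the members too, but scored 8.83, 8.95 and 8.84. WT mouse 1, high for the members, scored 8.85. The part of Sertoli cells in the members' values was not tested, and fits with the pachytene score as a covariate are given with those for the round spermatid score. The scores of spermatogonium, Leydig, peritubular myoid, macrophage and blood markers differed by -0.31, -0.48, -0.03, -0.28 and 0.12, with exact permutation p-values of 0.0758, 0.229, 0.846, 0.195 and 0.760. Of these 8 marker lists, only the Leydig list held a called gene, Hsd3b1, a steroidogenic enzyme lower in Rfx2-/- testis (91.2 against 50.2 CPM, edgeR adjusted p = 0.00126). The p-values of the 8 scores are not adjusted.

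When the round spermatid score was added to the edgeR fit as a covariate, 1 of the 6 members was called. Tssk2 was then lower in Rfx2-/- testis, by a log2 fold change of -1.12 (standard error 0.187, interval -1.53 to -0.71, adjusted p = 0.00227); in that fit 4.34% of tested genes were called lower and 2.20% higher. Tssk4 had -0.53 (adjusted p = 0.0367), Tssk1 -0.39 (adjusted p = 0.133), Tssk6 -0.39 (adjusted p = 0.394) and Tsks -0.07 (adjusted p = 0.736), while Tssk3 had 0.49 (adjusted p = 0.0541). At the same score, Tssk2 of Rfx2-/- mice lay below that of WT mice.

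The call of Tssk2 was lost without WT mouse 1 and with the pachytene score as the covariate. With each mouse left out in turn its log2 fold change stayed between -1.35 and -0.99, and without WT mouse 1 the adjusted p in edgeR was 0.0121, past the limit of 0.01. With the pachytene score as the covariate in its place, Tssk2 was at -2.46 with a standard error of 1.28, against 0.187 with the round spermatid score. Its adjusted p in edgeR was 0.313, and no member was called. The pachytene score nearly separates the genotypes, at 7.60 to 8.85 in WT and 8.84 to 9.13 in Rfx2-/- mice. That fit therefore cannot show whether the call depends on the choice of score. A score without transition proteins and protamines called Tssk2 (-1.33, edgeR adjusted p = 0.00125) and Tssk4 (-0.71, adjusted p = 0.00405). The genes taken out were themselves below 0 in the fit with the full score (Tnp1 -1.47, Tnp2 -0.63, Prm1 -0.83, Prm2 -1.59, Prm3 -0.11). Every member was lower with the shortened score, for example Tssk3 at 0.33 against 0.49. The shortened score is therefore no independent check of the call. The markers of the full score are measured in the same libraries. With the full score as covariate 5 of the 32 were called themselves, Akap4 and Prm2 lower and Smcp, Lyzl6 and Catsper4 higher.

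**Figure D3:**
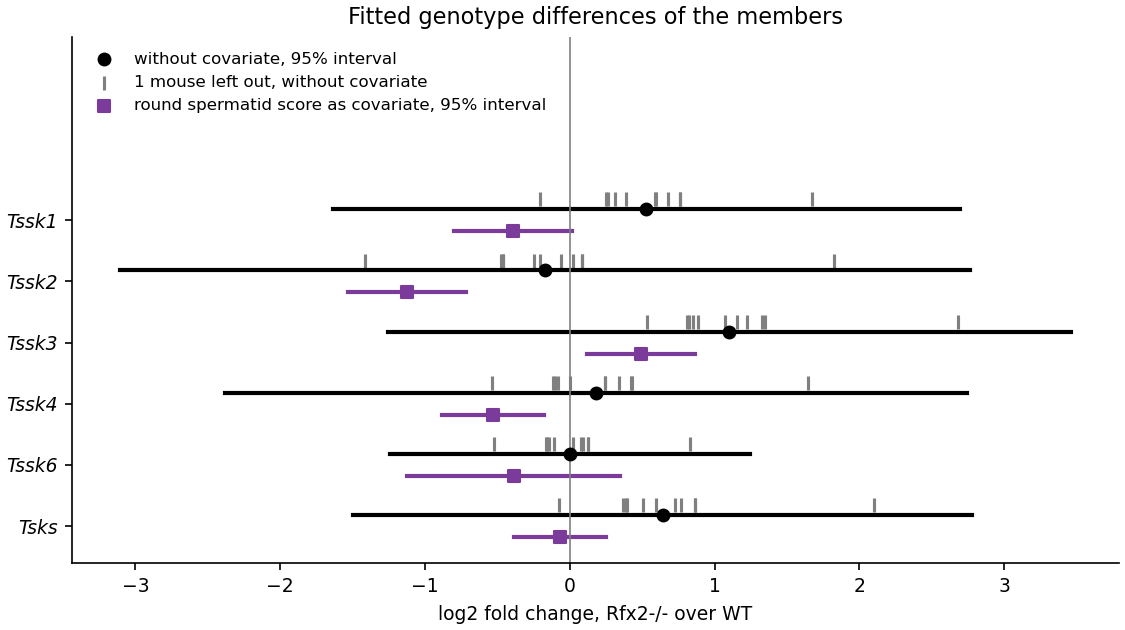
Log2 fold change of each member, Rfx2-/- over WT, with 95% intervals, without a covariate (black circles) and with the round spermatid score as covariate (purple squares); grey ticks are the fits without covariate that left out 1 mouse. The black intervals all cross 0, and with the covariate Tssk2 lies at -1.12 and Tssk3 at 0.49.

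In the ratio of 2 members within a mouse the library size cancels. In WT mice 1 to 5 the log2 ratio of Tssk1 to Tssk3 was 1.96, 2.52, 2.48, 2.66 and 2.68, and in Rfx2-/- mice it ran from 1.29 to 2.04. Only WT mouse 1 fell within the range of the Rfx2-/- mice. The mean was lower in Rfx2-/- mice by 0.92 (2.46 ± 0.293, SD, n = 5, against 1.54 ± 0.302, SD, n = 6), with an exact two-sided permutation p of 0.00649 and 0.0649 after Benjamini-Hochberg adjustment over the 15 pairs. The log2 ratio of Tssk3 to Tssk4 was -0.74, -1.11, -0.20, -0.37 and 0.22 in WT mice 1 to 5 and -0.03 to 0.77 in Rfx2-/- mice, a difference of 0.74 (exact permutation p = 0.00866, adjusted 0.0649).

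A further ratio was that of Tssk2 to Tssk3, at 1.66, 1.31, 0.838, 0.369 and 0.273 in WT mice 1 to 5 and from -1.91 to 0.821 in Rfx2-/- mice. It was lower in Rfx2-/- mice by 1.35 (exact permutation p = 0.0152, adjusted 0.0758), with 5 of 6 Rfx2-/- mice but 0 of 5 WT mice below 0. The ratio of Tssk3 to Tsks was higher in Rfx2-/- mice by 0.64 (exact permutation p = 0.0303, adjusted 0.114). All 4 involve Tssk3 and share its values. The other 11 pairs had unadjusted exact permutation p-values of 0.0758 to 0.855, and at an adjusted limit of 0.05 none of the 15 passed. The smallest p this design allows is 0.00216.

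**Figure D4:**
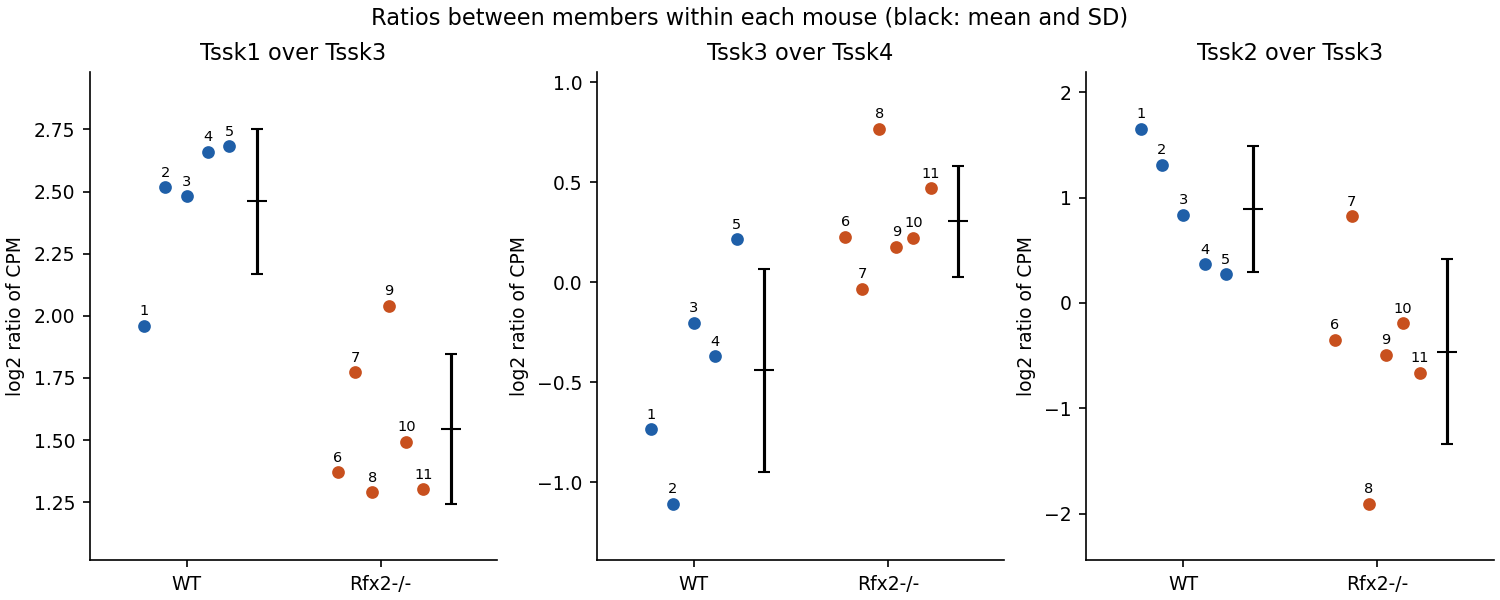
Log2 ratio of CPM of Tssk1 over Tssk3, Tssk3 over Tssk4 and Tssk2 over Tssk3 in each WT (blue) and Rfx2-/- (orange) mouse, numbered by replicate, with the mean and SD of each genotype in black. The means differ by -0.92, 0.74 and -1.35, and the genotypes overlap in each panel.

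Levels can be compared between genes only per length of transcript, here as CPM divided by exon length in kilobases (RPKM). Lengths came from GENCODE M21, while the study counted reads on its own Ensembl gene models, whose lengths were not compared. For Tssk1 the length was 3700 nt, of which 1095 nt are coding, so its RPKM depends on the gene model most. For Tssk6 the full 1335 nt were used, so its RPKM is too low if reads on the 390 nt under opposite-strand exons were left out. In WT mice the mean RPKM was highest for Tssk2 (11.7 ± 19.9, SD, n = 5), followed by Tsks at 10.2 ± 14.8, Tssk1 at 6.80 ± 8.80, Tssk4 at 5.72 ± 8.57, Tssk3 at 4.39 ± 6.68 and Tssk6 at 1.13 ± 1.11. In Rfx2-/- mice Tsks was highest (15.9 ± 16.8, SD, n = 6), then Tssk2 at 10.4 ± 15.3, Tssk1 at 9.80 ± 10.7, Tssk3 at 9.40 ± 9.28, Tssk4 at 6.49 ± 7.22 and Tssk6 at 1.13 ± 0.857. Neighbours in both orders overlapped over the mice, so the order of means does not separate them.

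Within single mice parts of the order were steadier. Tsks was above Tssk3, Tssk4 and Tssk6 in 11 of 11 mice, and Tssk1 was above Tssk4 in 11 of 11. Tssk1 was also above Tssk6 in 11 of 11, but only with the full 1335 nt as the length of Tssk6. Tssk1 and Tssk6 were closest in WT mouse 5, at 0.765 and 0.565 RPKM. With the 390 nt under opposite-strand exons taken out of its length, Tssk6 would stand above Tssk1 in this mouse. The high mean of Tssk2 in WT came from WT mouse 1, with 46.8 RPKM, since Tssk2 exceeded Tsks in 2 of 5 WT mice and in 0 of 6 Rfx2-/- mice. Tssk2 was above Tssk3 in 5 of 5 WT but in 1 of 6 Rfx2-/- mice, and Tssk1 was above Tssk3 in 5 of 5 and 2 of 6. These counts restate the ratios with length taken into account.

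The kinases act with activators, chaperones, substrates and phosphatases, most of which are made in many cells. Of 11 measured genes of partners and substrates, 0 were called in either direction, against 1.94% and 0.730% of tested genes; 8 had a fold change above 0 and 3 below, with a median of 0.20. Tssk5, the remaining testis-specific kinase of the family, behaved like the members, with 11.4, 2.52, 0.426, 0.315 and 0.157 CPM in WT mice 1 to 5 and 0.740, 5.55 and 25.6 CPM as lowest, median and highest in Rfx2-/- mice. The genotypes overlapped (log2 fold change 1.54, standard error 1.18, edgeR adjusted p = 0.325). With the round spermatid score as covariate Tssk5 was called higher, at 0.92 (edgeR adjusted p = 0.00770), the direction opposite to Tssk2. That fit called 2.20% of tested genes higher. The values of Tssk5 in WT mice 3 to 5 rest on 15, 9 and 5 counts. Its call was not tried with mice left out or with another score.

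Among direct partners, Tsacc, a co-chaperone that activates TSSK6, had a mean of 42.4 CPM in WT and 55.7 CPM in Rfx2-/- mice, with a log2 fold change of 0.40 (adjusted p = 0.377). The chaperones Hsp90aa1, Hsp90ab1 and Hspa8 had log2 fold changes of 0.20, -0.09 and -0.20, and Pdpk1, the activator of TSSK3, 0.03. Among substrates, the outer dense fibre gene Odf2 averaged 904 CPM in WT and 1538 CPM in Rfx2-/- mice (0.77, adjusted p = 0.0971), the axonemal gene Spag16 82.5 and 104 CPM (0.34, adjusted p = 0.313), and the histone gene H2afx 109 and 124 CPM (0.19, adjusted p = 0.182). The phosphatase genes Ppp1cc and Ppp1r11 had log2 fold changes of -0.18 and 0.57, with adjusted p-values of 0.166 and 0.171. The adjusted p-values of this list came from edgeR's fit over all genes.

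Of 36 other protein kinase genes known from male germ cells, 34 were tested (not Mos and Sbk2) and 0 were called, with 23 fold changes above 0, 11 below and a median of 0.19. The 3 with the highest mean CPM were Nek2, a centrosomal kinase of meiotic cells, Tesk1, an actin-regulating kinase, and Tlk2, a chromatin kinase. Nek2 averaged 303 ± 82.3 CPM (SD, n = 5) in WT and 457 ± 26.6 CPM (SD, n = 6) in Rfx2-/- mice, with every Rfx2-/- mouse above every WT mouse, and was not called (log2 fold change 0.59, edgeR adjusted p = 0.0374). Tesk1 averaged 240 and 414 CPM (adjusted p = 0.0796) and Tlk2 269 and 344 CPM (adjusted p = 0.0950). The median standard error of log2 fold changes was 0.153 in this list, against 0.564 to 1.34 for the members. With the round spermatid score as covariate, Clk3 (0.31, adjusted p = 0.00339) and Plk1 (0.58, adjusted p = 0.00936) of this list were called higher in edgeR. In that fit 2.20% of tested genes were called higher.

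Genes with the most similar pattern were sought among 14420 tested genes with a mean of at least 1 CPM, by Pearson's r of log2 CPM over the 11 mice, as a description. The 3 nearest to Tssk1 were Lrrc72, Fam217a and Gm7073 (r of 0.993 to 0.994). Those nearest to Tssk2 were 1700020L24Rik, Akap4, a gene of the sperm fibrous sheath, and 1700029H14Rik (0.993 to 0.994). For Tssk3 they were Ccdc63, Pkib, a protein kinase A inhibitor, and ENSMUSG00000090697 (0.995 to 0.997), and for Tssk4 4430402I18Rik, Tmem247 and Hipk4, a kinase of spermatids (0.997 to 0.998). For Tsks they were Cfap100, Fam205c and 4930474N05Rik (0.994 to 0.995). None of these 15 genes was called between genotypes, and Akap4 is also among the 32 markers of the round spermatid score.

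The nearest genes to Tssk6 were Hspa1l, a spermatid heat shock gene that is likewise in the score, 1700001K19Rik and P2rx3, with r of 0.974, 0.967 and 0.956. Only 4 genes exceeded 0.95 for Tssk6, where 151 to 433 did so for the other members. The low counts of Tssk6 and its overlap with opposite-strand exons limit this comparison too.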

How the data were processed

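Whole-testis RNA was sequenced from 5 WT and 6 Rfx2-/- mice. Per the labels and the study's methods, the authors sequenced single reads from TruSeq libraries (CASAVA 1.8.2), mapped them to GRCm38 with STAR 2.4, discarded reads with more than 1 place, and counted reads on the merged exons of coding isoforms with featureCounts 1.4.6, leaving out reads on exons of different genes. The deposited values are raw counts per gene and mouse, without normalization, and all are whole numbers.

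Genotypes were compared with edgeR 4.0.16 under R 4.3.3 (filterByExpr, TMM, glmQLFit, glmQLFTest, no covariate), with Benjamini-Hochberg adjustment over all 15745 tested genes and calls at an adjusted p of at most 0.01. CPM were scaled by TMM; log2 CPM used a prior count of 2. RPKM used merged exons of coding transcripts in GENCODE M21. Scores and ratios were compared by two-sided exact permutation tests over 462 assignments, correlations by 100000 permutations. Alternatives used DESeq2 1.42.0 and limma 3.58.1. The tests were tried on simulated counts. Python 3.11.15, pandas 2.3.3, SciPy 1.17.1 and Biopython 1.88 were used for tables and sequences, matplotlib 3.10.9 for figures. Symbols were missing for 781 of 23074 gene IDs.

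The members, gene lists and the covariate were chosen with earlier results of these data known, and leaving out mice with the covariate, the pachytene score and the shortened score were added after the covariate's effect was seen. The genes named besides the members were all partners measured, the 3 genes most like each member, and Rfx2. Of the other kinases, called genes and the 3 most abundant were named. Of the marker lists, called genes and set examples (Acrv1, Tnp1, Prm1, Piwil1, Sycp3, Hspa2, Sox9, Cyp17a1) were named. Genes called with the covariate among the round spermatid markers and the other kinases were named after their values were seen. Of the examples, Hspa2 averaged 1395 CPM in WT and 1962 CPM in Rfx2-/- mice. Protein sequences were not analysed here.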

Additional observations from a re-analysis of the deposited data

Results flagged for a closer look

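In 64 groups of values, the highest or lowest mouse was compared with its neighbours by Dixon's ratio at the 95% level, and 7 passed. The groups were the CPM of the members and Rfx2, the ratios between members and the scores of the gene lists in each genotype. Chance passes about 1 of 20 groups only where values are normal and groups independent. Here CPM were taken without logs and the ratios reuse the members' values, so the 7 cannot be set against that rate. WT mouse 1 stood apart from the other 4 WT mice for Tssk2, with 64.9 CPM against 0.472 to 12.8, for Tssk3, with 20.5 against 0.377 to 5.11, for Tssk6, with 4.16 against 0.754 to 1.04, and for Tsks, with 69.9 against 2.39 to 17.1. Rfx2-/- mouse 7 stood apart from the other 5 Rfx2-/- mice for Tssk2, with 56.1 CPM against 0.462 to 16.0, and for Tssk6, with 3.80 against 0.826 to 1.4. These mice also had the highest round spermatid scores of their genotypes, 5.24 and 5.62. The log2 ratio of Tssk1 to Tssk3 in WT mouse 1, 1.96, lay below the 2.48 to 2.68 of the other 4 WT mice.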

How the results depend on the processing

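No paired analysis was possible because the genotypes share no replicate numbers. No alternative to the fit without covariate called a member, except the round spermatid score as covariate, which called 1 lower, Tssk2 at -1.12, and gave Tssk1 -0.39, Tssk4 -0.53, Tssk6 -0.39 and Tsks -0.070; total counts as library sizes gave Tssk6 -0.13 and the blood score -0.043. Leaving out 1 mouse gave -0.21 to 1.67 for Tssk1, -1.42 to 1.82 for Tssk2, -0.54 to 1.65 for Tssk4, -0.52 to 0.83 for Tssk6 and -0.072 to 2.10 for Tsks. With the covariate these ranges were -0.59 to 0.063 for Tssk6 and -0.20 to 0.0043 for Tsks; with the pachytene score as covariate Tssk3 was at -0.76. The log2 ratios ran from -0.37 to 0.049 for Tssk1 over Tssk4, -0.36 to 0.84 for Tssk2 over Tssk6 and -0.36 to 0.15 for Tssk4 over Tsks, the peritubular myoid score from -0.11 to 0.064 and the blood score from -0.033 to 0.34. Of all tested genes, 305 were called lower and 115 higher; an adjusted limit of 0.05 gave 1382 and 968, DESeq2 911 and 1146, voom 682 and 367, the covariate 684 and 346, and leaving out 1 mouse 184 to 393 and 45 to 192. The causes were not tested. A mean count of at least 50 left 5 members, without Tssk6.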
